A study of Mus musculus with 3 samples.

Results

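Rab proteins are small GTPases that sit on the membranes of the secretory and endocytic routes. In the GTP-bound state each recruits its own set of effectors (tethers, motors and coat adaptors), so that a vesicle forms, moves and docks at the right compartment. Exchange factors switch them on, GTPase activating proteins switch them off, and a lipid anchor added by a geranylgeranyl transferase holds them on the membrane. Melanocytes use this shared machinery, besides a few dedicated Rabs, to sort pigment enzymes from the Golgi and endosomes into melanosomes.

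The genes described here are the Rab genes that remain once the Rabs of melanosome transport are set aside. They were taken by symbol, as rows named Rab with a number, an optional letter and an optional further digit, leaving out Rab27a, Rab32 and Rab38. This gave 47 of the 12852 genes in the table, and 39 of the 47 had a mean of at least 1 RPKM (reads relative to library size and transcript length) over the libraries and were tested. RNA sequencing was done on B16F10 cells, a pigmented mouse melanoma line, in 1 library of control cells labelled wild type and titled siCtrl and in 2 libraries of cells with Med23 knocked down, titled siMed23A and siMed23B. Med23 is part of Mediator, through which transcription factors reach RNA polymerase II. By its title, the series asked whether Med23 bears on pigmentation and DNA repair by way of Mitf. Not given in the sources used here were the time after knockdown, the siRNA sequences and how A and B differ. Both knockdown libraries are called the first and the second by their place in the table.

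Read depth was unknown, since the deposited RPKM shared 1 distribution over the 3 libraries and summed to 255492 in each. Values are the control's RPKM and those of both knockdown libraries. Log2 ratios are on the log2(RPKM + 1) scale, which understates the change of low genes, and p-values are from limma with Benjamini-Hochberg adjustment over the 9722 genes tested. Because the control had no replicate, these p-values take its spread to be that between the 2 knockdown libraries, which may be technical. With the control's SD taken as 3 times theirs, 0 of the 39 tested Rabs passed limma's adjusted threshold and 8 had an unadjusted p under 0.05, so every call below depends on that assumption. Med23 was 5.23 RPKM in the control, against 1.65 and 1.61 RPKM after knockdown. All 8 melanocyte markers examined were in the table, with a summed level of 7004 RPKM in the control, against 2993 and 2883 RPKM after knockdown. None of the 3 endothelial and 4 epithelial markers was listed. Of the leukocyte and fibroblast markers, 2 of 5 were listed in each list, with sums of 17.5, 10.3 and 10.5 RPKM (almost all from Cd68, 16.9 RPKM in the control) and of 2.09, 2.42 and 2.70 RPKM. The melanocyte markers thus moved in the same comparison as the Rab genes, and their part in the Rab results was not tested. In such bulk libraries fewer cells of a type and less RNA per cell cannot be told apart.

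Among the 39 tested Rabs, 16 fell, 5 rose and 18 did not pass the test. Of all genes tested, 50.3% were called, with 24% lower and 26.3% higher. The share of Rabs called in either direction, 53.8%, was near that background, while 41.0% were called lower and 12.8% higher. The median log2 ratio of the tested Rabs was -0.18, against 0.01 for all genes tested. Most of the shifts were moderate, with log2 ratios from -1.28 for Rab21 to 1.02 for Rab9. At least 1.5-fold lower in both knockdown libraries were 9 Rabs, and 3 were at least 1.5-fold higher, where 13.5% and 14.6% of all tested genes were. Summed over the 47 genes, the level was 920 RPKM in the control, against 757 and 756 RPKM after knockdown.

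**Figure D1:**
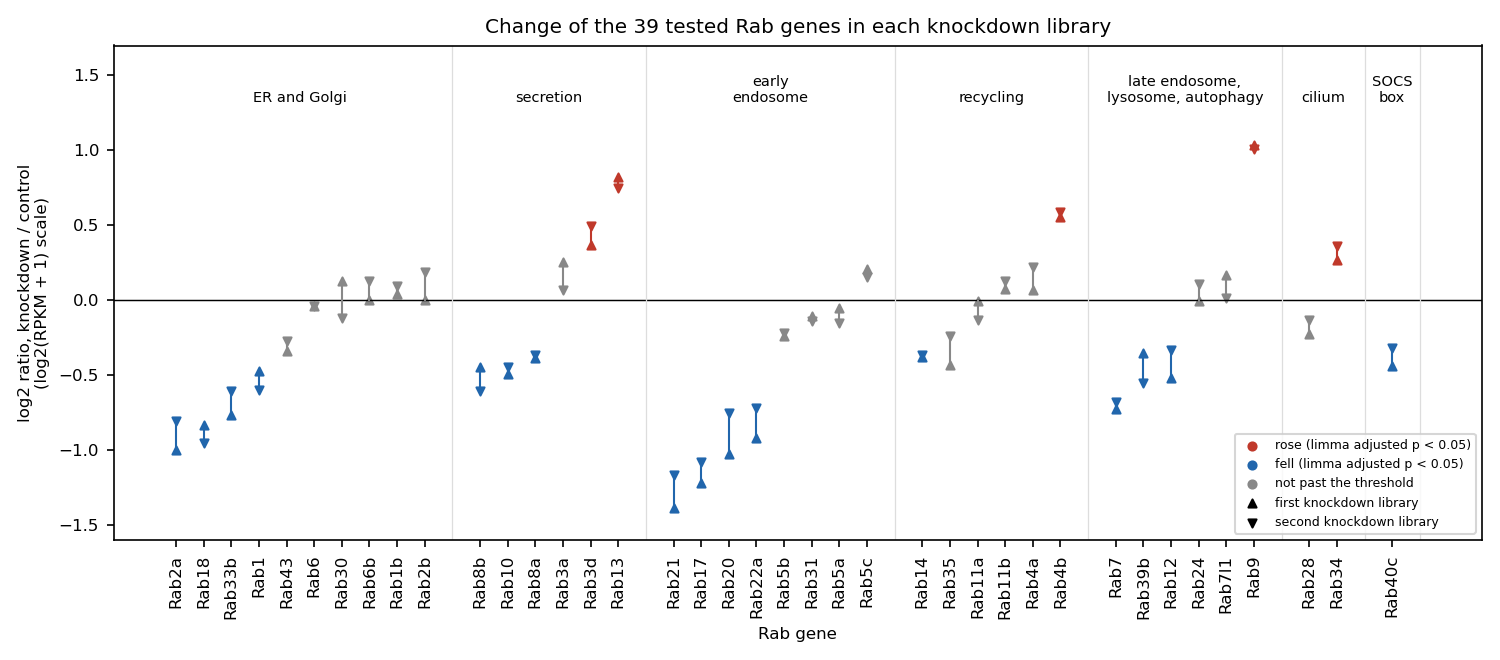
Log2 ratio of each of the 39 tested Rab genes in the first (upward triangle) and the second (downward triangle) knockdown library against the control, on the log2(RPKM + 1) scale and grouped by trafficking step. Blue marks the 16 genes that fell, red the 5 that rose and grey the 18 that did not pass limma's test. Rab21 and Rab17, in the early endosome group, hold the lowest values, and Rab9 the highest.

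In the control the most abundant Rabs were Rab7 (139 RPKM), Rab1 (98.6 RPKM), Rab5c (84.8 RPKM), Rab18 (52.2 RPKM) and Rab6 (50.2 RPKM). After knockdown the order by mean was Rab5c (96.3 ± 2.61 RPKM, SD, n = 2), Rab7 (85.0 ± 1.96 RPKM), Rab1 (67.7 ± 4.26 RPKM) and Rab6 (48.9 ± 0.110 RPKM), with Rab11a, Rab1b, Rab31, Rab14, Rab10 and Rab18 next. Within single libraries, Rab1b was above Rab11a in the second knockdown library and Rab18 above Rab10 in the first. Rab18 and Rab6 were close to each other in the control, and the single control library gives no spread to separate them. Below the filter were 8 genes: Rab23, Rab36, Rab33a, Rab3b, Rab37, Rab15, Rab25 and Rab9b. Their levels ran from 0.0403 RPKM (Rab25, an epithelial recycling Rab) to 1.19 RPKM (Rab23) in the control. Rab15 was higher in both knockdown libraries (0.221 RPKM in the control, then 0.575 and 0.431 RPKM) and Rab33a likewise (0.0609, then 0.193 and 0.0835 RPKM), while Rab9b was lower in both (0.127, then 0.0645 and 0.0371 RPKM).

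**Figure D2:**
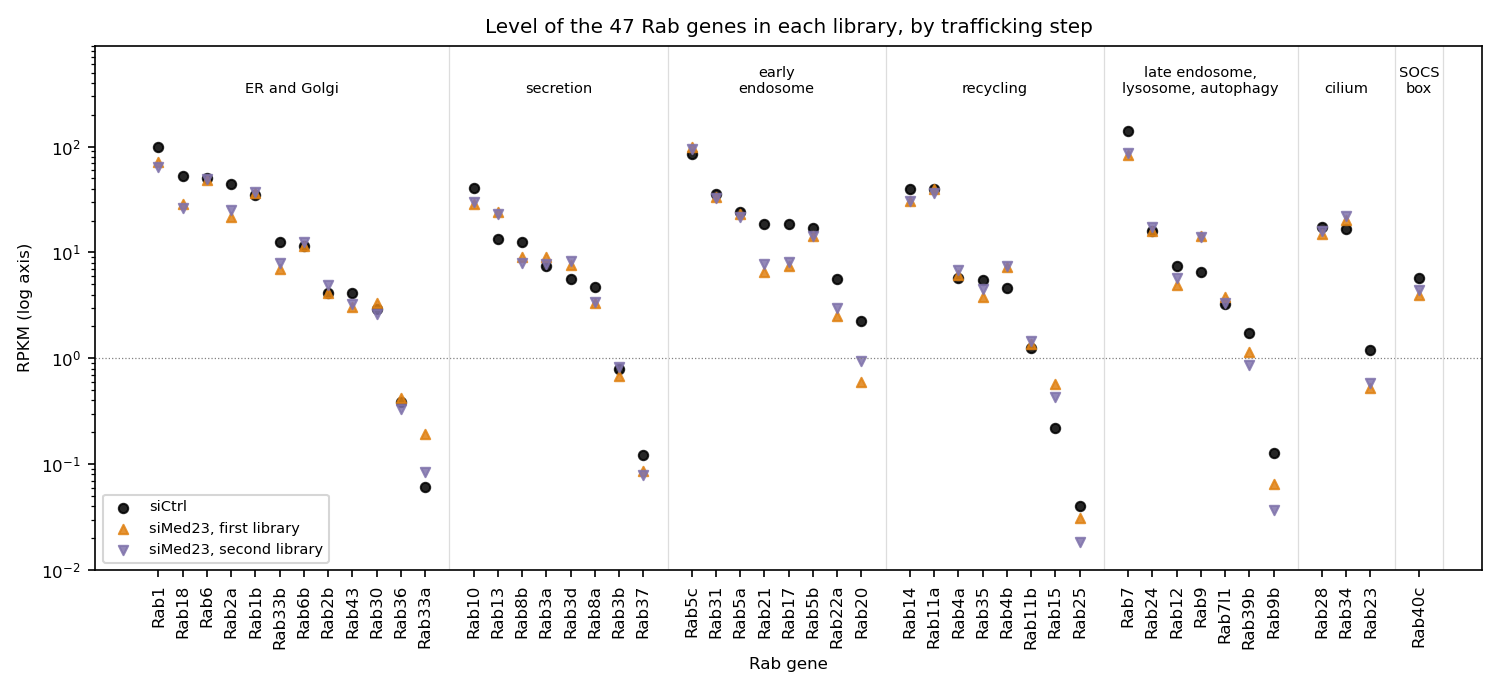
RPKM of all 47 Rab genes in the control library (black circles) and the 2 knockdown libraries (triangles), on a log axis, grouped by trafficking step and ordered by the control value. The dotted line marks 1 RPKM; Rab7, Rab1 and Rab5c are the highest, and the 8 untested genes lie at or under the line on average.

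Rabs of the endoplasmic reticulum and Golgi were lower or did not pass the test. Of the 12 genes of this step 10 were tested, 4 fell, 0 rose and 6 did not pass by limma's adjusted p, with a median log2 ratio of -0.17. The share called was 40%, all lower, where 50.3% of all genes tested were called and 24% were lower. Rab2a, which acts between the Golgi and the endoplasmic reticulum, was 44.4 RPKM in the control, against 21.7 and 25.0 RPKM after knockdown. Both knockdown libraries were far below the control, a 1.90-fold lower mean level (23.3 ± 2.31 RPKM, SD, n = 2) and a log2 ratio of -0.90 (limma SE 0.10, adjusted p = 0.00232). Rab18, found on the endoplasmic reticulum and lipid droplets, was 52.2 RPKM in the control, against 29.0 and 26.6 RPKM after knockdown. Its log2 ratio was -0.89 (limma SE 0.09, adjusted p = 0.00144), and the knockdown libraries lay close together. Rab33b, a Golgi Rab that also binds the autophagy protein Atg16l1, fell from 12.6 RPKM to 7.04 and 7.96 RPKM (log2 ratio -0.68, limma adjusted p = 0.00631).

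Rab1 (ENSMUSG00000020149), which drives transport from the endoplasmic reticulum to the Golgi, fell from 98.6 RPKM to 70.7 and 64.7 RPKM (log2 ratio -0.54, SE 0.08, limma adjusted p = 0.00408). Its close relative Rab1b stayed between 35.1 and 37.4 RPKM in the 3 libraries, with a log2 ratio of 0.07 (limma adjusted p = 0.482). Rab6, which works in retrograde transport to and through the Golgi, was 50.2 RPKM in the control, against 48.8 and 49.0 RPKM after knockdown (limma adjusted p = 0.659). Rab43, another Golgi Rab, was 4.14 RPKM and then 3.07 and 3.26 RPKM, lower in both knockdown libraries but not past the test (log2 ratio -0.30, limma adjusted p = 0.0707). The other tested Golgi genes, Rab30, Rab6b and Rab2b, had log2 ratios between 0.01 and 0.09. Reads of Rab43 and Rab2b may be shared with other gene models: 90.3% of the 50-base words of the longest Rab43 transcript also occur in Gm45140, and 68.3% of those of Rab2b in Gm43766. For Rab6 the share was 20.8% (Mrpl48) and for Rab33b 16.4% (Gm38160). Whether reads were counted by strand was not given in the sources used here.

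Among 6 secretory Rabs tested, 3 fell, 2 rose and 1 did not pass, so 83.3% were called where 50.3% of all genes tested were, in a step of few genes. After correction for transcript length and GC content 3 of the 6 passed (Rab8a, Rab3d and Rab13), where 5166 of all 9614 genes so tested did. Rab8b and Rab8a, which carry cargo from the trans-Golgi to the plasma membrane and the cilium, both fell, as did Rab10, which acts in polarised exocytosis. Rab10 was 40.9 RPKM in the control, against 28.8 and 29.8 RPKM after knockdown, with a log2 ratio of -0.47 (limma SE 0.08, adjusted p = 0.00589). Rab8b fell from 12.6 to 8.98 and 7.94 RPKM (log2 ratio -0.53, limma adjusted p = 0.0137) and Rab8a from 4.69 to 3.36 and 3.42 RPKM (log2 ratio -0.38, limma adjusted p = 0.0357). With no filter on low genes Rab8a did not pass (limma adjusted p = 0.0650). With this correction neither Rab10 (log2 ratio -0.19, limma adjusted p = 0.111) nor Rab8b (-0.11, 0.373) passed.

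Rab13, known for its part in the transport of junction proteins to the cell surface, went the other way. It was 13.3 RPKM in the control, against 24.4 and 23.1 RPKM after knockdown, a 1.78-fold higher mean of 23.7 ± 0.880 RPKM (SD, n = 2). The log2 ratio was 0.79 (limma SE 0.09, adjusted p = 0.00202), and both knockdown libraries were well above the control. Rab3d, a Rab of secretory granules, rose from 5.61 to 7.56 and 8.31 RPKM (log2 ratio 0.43, limma adjusted p = 0.0239). Rab3a, its relative in regulated secretion, was 7.38 RPKM in the control, against 8.98 and 7.80 RPKM after knockdown and did not pass (limma adjusted p = 0.299).

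The lowest log2 ratios of the family, those of Rab21 and Rab17, were in the early endosome group, where all 8 genes were tested. In it 4 fell and 4 did not pass, so 50% were called, all lower, with a median log2 ratio of -0.52. No gene lay near that median: those that fell were at -0.82 or lower and the others at -0.23 or higher. Of all genes tested 50.3% were called and 24% were lower. Rab2a (-0.90) and Rab18 (-0.89), of the endoplasmic reticulum and Golgi, lay below Rab22a (-0.82). Rab21 (ENSMUSG00000020132), which acts in the endocytosis of integrins, was 18.6 RPKM in the control, against 6.50 and 7.73 RPKM after knockdown. Its mean was 2.61-fold lower (7.12 ± 0.874 RPKM, SD, n = 2), and the log2 ratio -1.28 (limma SE 0.13, adjusted p = 0.00153). Rab17 (ENSMUSG00000026304), a recycling Rab of polarised cells that has also been linked to filopodia and melanosome release in melanocytes, fell from 18.5 RPKM to 7.36 and 8.21 RPKM. The log2 ratio of Rab17 was -1.15 (limma SE 0.11, adjusted p = 0.00134). Rab17 was counted here with the early endosome, and the group's median includes it and depends on that choice. In both genes the 2 knockdown values were near each other and under the control value by more than 2-fold.

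Rab22a, which acts on early and recycling endosomes, fell from 5.60 RPKM to 2.49 and 3.01 RPKM (log2 ratio -0.82, SE 0.13, limma adjusted p = 0.00593). After the length and GC correction it was smaller, -0.44, and still passed (limma adjusted p = 0.0211). Rab20, a Rab of endosomes and maturing phagosomes, was 2.26 RPKM in the control, against 0.602 and 0.937 RPKM after knockdown, with a log2 ratio of -0.89 (limma SE 0.15, adjusted p = 0.00715). Both knockdown values of Rab20 were below 1 RPKM, so it passed the filter through its control value, and 22.9% of its 50-base words occur also in E230013L22Rik.

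The Rab5 genes, which control fusion of early endosomes, were not called. Rab5c, the most abundant of them, was 84.8 RPKM in the control, against 98.1 and 94.4 RPKM after knockdown (log2 ratio 0.18, limma adjusted p = 0.0543). Rab5b was 16.9 RPKM and then 14.2 and 14.4 RPKM (log2 ratio -0.23, limma adjusted p = 0.0758), and Rab5a was 24.0 RPKM and then 23.1 and 21.5 RPKM (log2 ratio -0.10). Rab31, a relative of Rab22a, was 35.7 RPKM in the control, against 33.1 and 32.3 RPKM after knockdown, also not past the test (log2 ratio -0.12).

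Because Mitf, which fell from 9.00 RPKM to 4.23 and 3.51 RPKM, belongs to a family of factors known to bind E-boxes, the promoters of the Rab genes were searched for this motif. The window ran from 250 bases before to 50 bases after each RefSeq start (build GRCm38.p6), and 41 of the 47 genes matched, 35 of them tested. The palindrome CACGTG, the same on both strands, occurred in 7.15% of all 32851 such windows and for 8.09% of the 27025 genes they belong to, some of which have several windows. Among the Rabs it was present for 2 of the 14 that fell and matched (Rab20 and Rab21), 0 of the 5 that rose and 2 of the 16 that did not pass (Rab5a and Rab24). CATGTG, searched on both strands, occurred in 14.15% of all windows and for 15.89% of genes. Among the Rabs it was present for 0 of those that fell, for Rab13 and Rab34 among those that rose and for Rab28 among those not called. The stretches around CACGTG are shown for the 4 tested genes that hold it, since genes with and without a change carry the same letters. They read 5′ to 3′ along the gene's strand, with the motif in capitals.
Rab21, chr10:115315596-115315641, minus strand: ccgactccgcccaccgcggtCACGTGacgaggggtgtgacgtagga
Rab20, chr8:11478661-11478706, minus strand: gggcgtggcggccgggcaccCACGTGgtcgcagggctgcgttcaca
Rab5a, chr17:53479119-53479164, plus strand: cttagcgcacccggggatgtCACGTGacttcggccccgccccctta
Rab24, chr13:55321953-55321998, minus strand: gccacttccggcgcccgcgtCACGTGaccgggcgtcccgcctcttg
In Rab21 the motif began 30 bases before the start, in Rab20 46 bases before it, in Rab5a 95 bases before it (with another copy 235 bases before it) and in Rab24 at base 3 of the transcript. A match of letters is no evidence of binding, and no binding was measured in these libraries.

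Of the 6 recycling Rabs tested, 1 fell, 1 rose and 4 did not pass, with a median log2 ratio of 0.02. The share called was 33.3%, against 50.3% of all genes tested, a difference of about 1 gene. Rab11a, the main Rab of the slow recycling compartment, was 39.7 RPKM in the control, against 39.5 and 36.1 RPKM after knockdown (log2 ratio -0.07, limma adjusted p = 0.517). Rab14, which acts between the Golgi and endosomes, fell from 40.0 RPKM to 30.6 and 30.8 RPKM (log2 ratio -0.37, SE 0.07, limma adjusted p = 0.0108). Rab4b, of the fast recycling route, was 4.59 RPKM in the control, against 7.22 and 7.39 RPKM after knockdown, with a log2 ratio of 0.57 (limma SE 0.10, adjusted p = 0.00822). That value is uncertain, because 93.0% of the 50-base words of Rab4b also occur in the transcript Gm21983. Rab4a was 5.76 RPKM and then 6.07 and 6.88 RPKM, Rab11b 1.25 RPKM and then 1.37 and 1.46 RPKM, and Rab35, which recycles cargo to the plasma membrane, 5.52 RPKM and then 3.83 and 4.54 RPKM. None of these passed, though Rab35 (log2 ratio -0.33, limma adjusted p = 0.0802) did after the length and GC correction (limma adjusted p = 0.0242).

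At the late endosome, the lysosome and in autophagy, 3 of the 6 tested Rabs fell, 1 rose and 2 did not pass. Thus 66.7% were called and 50% were lower, where 50.3% and 24% of all genes tested were, in a step of few genes. Rab7 (ENSMUSG00000079477), the Rab of late endosomes and lysosomes and the most abundant member in the control, was 139 RPKM there and 83.6 and 86.4 RPKM after knockdown. Its mean of 85.0 ± 1.96 RPKM (SD, n = 2) was 1.64-fold lower, and the log2 ratio -0.70 (limma SE 0.06, adjusted p = 0.00095). Rab7 shares 14.5% of its 50-base words with the pseudogene Rab7-ps1.

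Rab9 (ENSMUSG00000079316), which returns mannose 6-phosphate receptors from late endosomes to the trans-Golgi and has been tied to cargo delivery to melanosomes, had the highest log2 ratio of the family. It was 6.47 RPKM in the control, against 14.3 and 14.0 RPKM after knockdown, a 2.19-fold higher mean of 14.2 ± 0.199 RPKM (SD, n = 2). The log2 ratio was 1.02 (limma SE 0.09, adjusted p = 0.00127), and the value was the same to 2 decimals after the length and GC correction. Rab9 and Rab7 thus moved in opposite directions, each with knockdown libraries that lay close together. Of the 50-base words of Rab9, 7.87% occur also in the pseudogene Rab9b-ps1.

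Rab12, which sends the transferrin receptor to lysosomes, fell from 7.45 to 4.89 and 5.73 RPKM (log2 ratio -0.43, limma adjusted p = 0.0373), a call that was lost with no filter on low genes (limma adjusted p = 0.0642). Rab39b, best known from neurons, fell from 1.74 RPKM to 1.15 and 0.872 RPKM (log2 ratio -0.45, limma adjusted p = 0.0397), with 16.2% of its 50-base words in Gm15063, and its log2 ratio was -0.11 after the correction and not past the test (limma adjusted p = 0.477). Rab24, linked to autophagy, was 16.0 RPKM in the control, against 15.9 and 17.3 RPKM after knockdown, and 48.9% of its 50-base words lie also in Prelid1. Rab7l1, a Golgi and lysosome Rab now called Rab29, was 3.29 RPKM and then 3.82 and 3.33 RPKM. Neither passed (limma adjusted p = 0.669 and 0.562).

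The cilium group and the SOCS-box group were small. Rab34, needed for the first steps of cilium assembly, rose from 16.8 to 20.4 and 21.8 RPKM (log2 ratio 0.32, SE 0.09, limma adjusted p = 0.0327), and did not pass without an intensity trend (limma adjusted p = 0.0519) or after the length and GC correction (limma adjusted p = 0.0978). Rab28 was 17.4 RPKM in the control, against 14.8 and 15.8 RPKM after knockdown and was not called (limma adjusted p = 0.162). Rab23, a negative regulator of Hedgehog signalling, was 1.19 RPKM and then 0.520 and 0.587 RPKM and lay under the filter, so it was not tested in the main comparison. Rab40c, which carries a SOCS box that recruits a ubiquitin ligase, fell from 5.75 to 3.97 and 4.41 RPKM (log2 ratio -0.38, limma adjusted p = 0.0417), and its call was likewise lost with no filter (limma adjusted p = 0.0724).

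Among genes that share a Rab number, the more abundant and the less abundant copy often differed in their log2 ratios, a difference that was not tested. Rab1 made up 73.8% of the summed Rab1 and Rab1b RPKM in the control and 66.2% and 63.3% after knockdown. Rab2a made up 91.4% of the Rab2 sum in the control and 83.9% and 83.6% after knockdown. Rab2b itself was 4.16 RPKM in the control, against 4.17 and 4.88 RPKM after knockdown. The Rab4 sum was 10.3 RPKM in the control, against 13.3 and 14.3 RPKM after knockdown, with the share of Rab4b at 44.3%, 54.3% and 51.8%. The Rab2 and Rab4 sums and shares are uncertain. Of their 50-base words, Rab2b shares 68.3% and Rab4b 93.0% with another gene model.

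Rab3a made up 53.5% of the Rab3 sum in the control and 52.2% and 46.1% after knockdown, and Rab3d 40.7% and then 43.9% and 49.1%, so that Rab3d was the larger in the second knockdown library alone. Rab11a held between 96.1% and 96.9% of the Rab11 sum and Rab6 between 79.5% and 81.4% of the Rab6 sum in the 3 libraries. The Rab8 sum dropped from 17.3 RPKM to 12.3 and 11.4 RPKM, with Rab8b at 72.9%, 72.8% and 69.9% of it. For Rab5 the sum was 126 RPKM in the control, against 135 and 130 RPKM after knockdown, and Rab5c gave 67.4% of it and then 72.5% in each knockdown library.

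**Figure D3:**
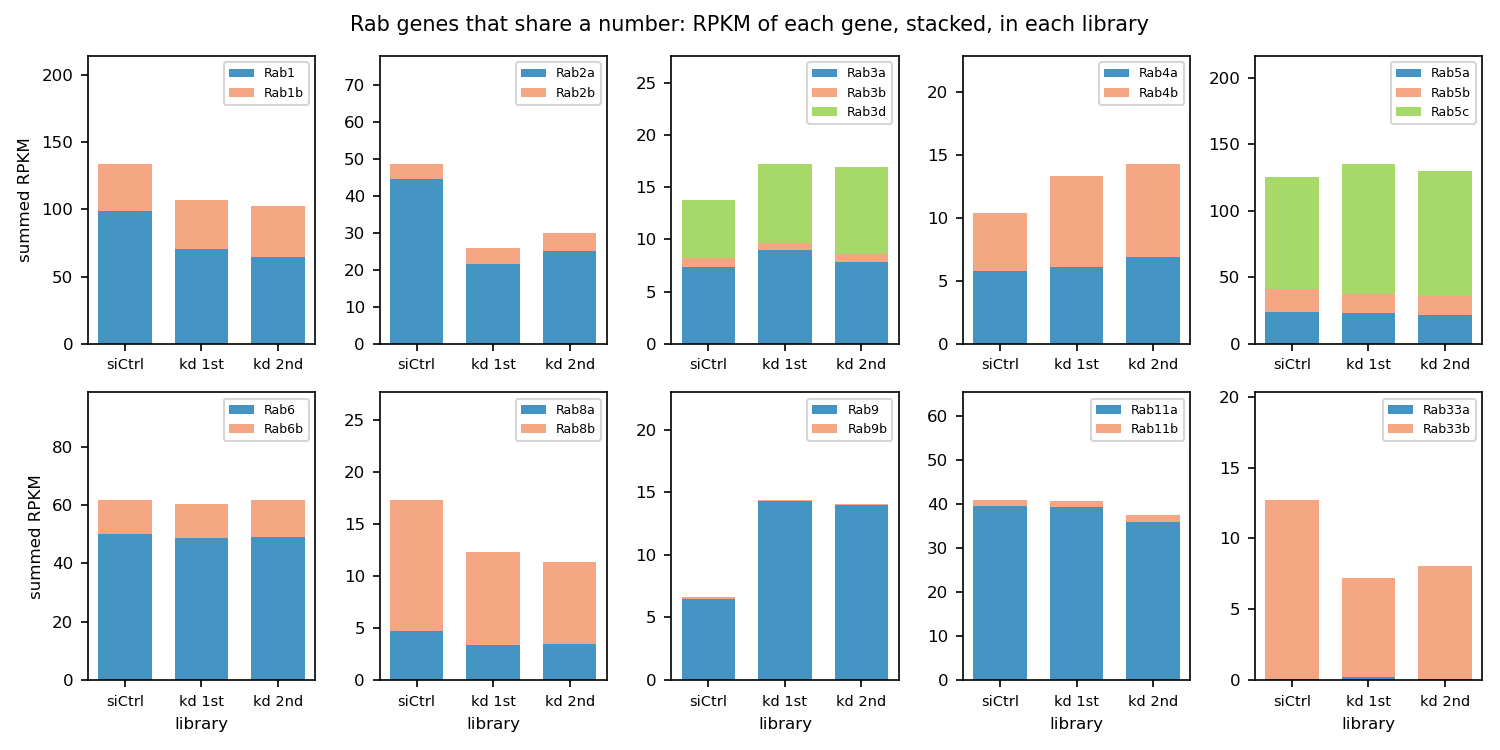
RPKM of Rab genes that share a number, stacked, in the control and the first and second knockdown library, with a linear axis from 0 in each panel. The Rab2 and Rab8 sums are lower and the Rab4 and Rab9 sums higher after knockdown, in each library, while the Rab6 sum lies between 60.3 and 61.7 RPKM in all 3. Rab2b and Rab4b may share reads with other gene models.

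Transcript length and GC content moved with these values. Both were medians over a gene's annotated transcripts, short ones included. For Rab18 the length was thus 729 bases, where the longest transcript has 6515, and for Rab10 it was 3513 bases, as in the longest. How far the corrected values depend on that choice was not tested. Over the 39 tested Rabs, log2 ratios had a Spearman correlation of -0.35 with transcript length and 0.28 with GC content, and over all 9722 genes tested -0.21 and 0.20. Genes within 1 set of libraries are not independent replicates, and these values only describe the libraries. Corrected for both, 17 of the 21 called Rabs kept their call and direction. Rab8b, Rab10, Rab39b and Rab34 lost it, and Rab35, Rab43 and Rab6 gained one. With the correction 20 of the 39 Rabs were called, and 5166 of all 9614 genes so tested. Rab6 turned from -0.04 to 0.24 (limma adjusted p = 0.0495). The log2 ratios of Rab21, Rab17, Rab18, Rab7, Rab13 and Rab9 stayed close, at -1.23, -1.28, -0.87, -0.72, 0.75 and 1.02.

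**Figure D4:**
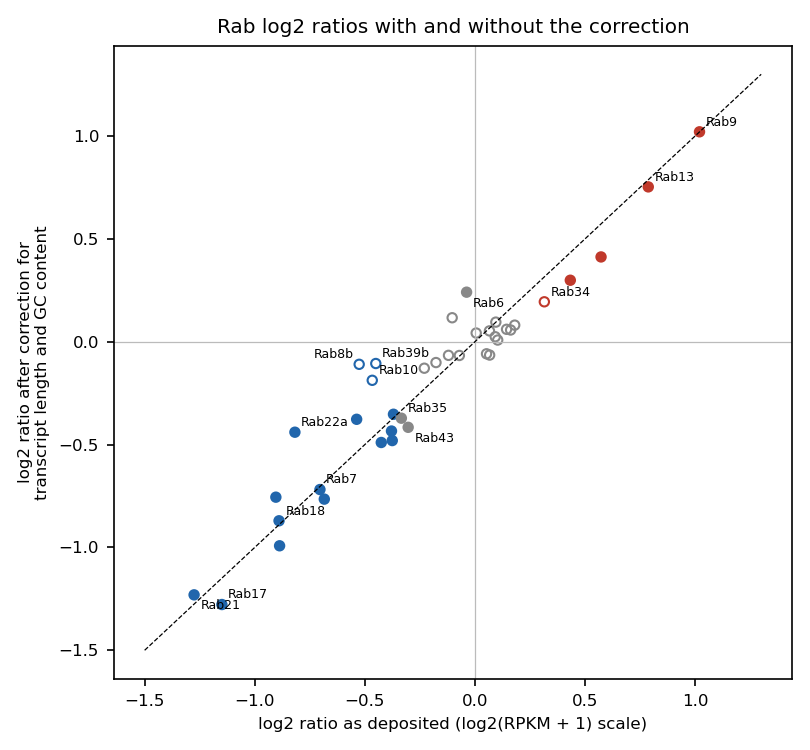
Log2 ratio of each tested Rab gene as deposited (horizontal) and after correction by loess for the length and GC content of the transcripts (vertical). Filled points passed limma's test after the correction and open points did not, colours give the call without it (blue fell, red rose, grey not past), and the dashed line marks equal values; Rab10, Rab8b and Rab39b move furthest towards 0 among the called genes that became open.

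The Rabs left out by the rule fell in the same comparison. Rab27a was 28.1 RPKM in the control, against 8.62 and 9.08 RPKM after knockdown, Rab38 347 RPKM and then 153 and 140 RPKM, and Rab32 3.38 RPKM and then 1.57 and 1.87 RPKM. Their log2 ratios ran from -1.56 for Rab27a to -0.69 for Rab32, a range that also holds Rab21, Rab17, Rab2a, Rab18, Rab20, Rab22a and Rab7.

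Genes that act on Rabs were taken from lists of factors for lipid anchoring and recycling, exchange factors, GTPase activating proteins and effectors. The 148 entries matched 137 gene identifiers in the table, with Golgb1 counted under both of its identifiers, and 120 were tested. Of these, 31 fell, 13 rose and 76 did not pass, so 36.7% were called where 50.3% of all genes tested were. The share lower, 25.8%, was near the 24% of all genes tested, while 10.8% were higher, against 26.3%. The lipid anchoring list held the highest values. Rabggtb, the catalytic subunit of the geranylgeranyl transferase, was 36.9 RPKM in the control, against 77.4 and 73.3 RPKM after knockdown, with a log2 ratio of 1.01 (limma SE 0.07, adjusted p = 0.000605). Rabggta, the other subunit, lay under the filter and was lower in both knockdown libraries (1.08 RPKM, then 0.410 and 0.523 RPKM). Rabac1, a prenylated Rab acceptor, rose from 63.2 to 111 and 113 RPKM (log2 ratio 0.81, limma adjusted p = 0.000639), and Praf2, of the same family, from 23.3 to 36.2 and 36.3 RPKM. Chm, the escort protein that presents Rabs to the transferase, fell from 2.44 to 1.16 and 0.866 RPKM (log2 ratio -0.78, limma adjusted p = 0.00784), and its log2 ratio was -0.39 after the length and GC correction (limma adjusted p = 0.0240). In this list 3 of 8 tested genes rose, 1 fell and 4 did not pass, so 50% were called, near the 50.3% of all genes tested. By direction 12.5% were lower and 37.5% higher, where 24% and 26.3% of all genes tested were, in a list of few genes.

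Of 36 exchange factors tested, 11 fell, 6 rose and 19 did not pass, and the share called, 47.2%, was near the 50.3% of all genes tested. By direction 30.6% were lower and 16.7% higher, where 24% and 26.3% of all genes tested were. Dennd5b, a DENN-domain protein, fell from 4.23 to 1.64 and 1.68 RPKM (log2 ratio -0.98), and Mon1b, of the Rab7 exchange complex, from 1.75 to 0.651 and 0.738 RPKM (log2 ratio -0.70). Dennd1a, which acts on Rab35, rose from 3.16 to 5.87 and 6.26 RPKM (log2 ratio 0.76), Rgp1, of the Rab6 exchange complex, from 7.76 to 12.2 and 13.8 RPKM (log2 ratio 0.67), and Rab3ip, an exchange factor for Rab8, from 3.90 to 5.41 and 5.65 RPKM (log2 ratio 0.41). Mon1b was below 1 RPKM in both knockdown libraries, so it passed the filter through its control value. After the length and GC correction Rab3ip did not pass (limma adjusted p = 0.0559), and the log2 ratio of Dennd5b was -0.63. Exchange factor and Rab did not always move alike in the main comparison, as Rab8a and Rab8b fell while Rab3ip rose. Like Rab3ip, Rab8b did not pass after the correction (limma adjusted p = 0.373), and Rab8a did not with no filter (limma adjusted p = 0.0650).

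Among 34 tested GTPase activating proteins, 9 fell, 2 rose and 23 did not pass, so 32.4% were called where 50.3% of all genes tested were. The share lower, 26.5%, was near the 24% of all genes tested, while 5.88% were higher, against 26.3%. Tbc1d24 fell from 2.51 to 0.813 and 0.816 RPKM (log2 ratio -0.95), Tbc1d4, which acts on Rab10 in glucose transporter traffic, from 4.23 to 2.04 and 2.08 RPKM (log2 ratio -0.77), and Tbc1d2, which acts on Rab7, from 2.05 to 0.752 and 0.899 RPKM (log2 ratio -0.74). Tbc1d24 and Tbc1d2 were below 1 RPKM in both knockdown libraries and passed the filter through their control values. Those that rose were Grtp1 (4.03 RPKM, then 6.61 and 6.67 RPKM) and Tbc1d20, an activator of Rab1 and Rab18 hydrolysis (9.92 RPKM, then 13.0 and 13.3 RPKM).

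Of the 42 tested effectors 10 fell, 2 rose and 30 did not pass, the last including both Golgb1 entries. The share called was 28.6%, where 50.3% of all genes tested were. With 23.8% lower, the falls were near the 24% of all genes tested, while 4.76% were higher, against 26.3%. Sytl2, a synaptotagmin-like effector of Rab27, fell from 7.96 to 3.90 and 2.98 RPKM (log2 ratio -1.02, limma adjusted p = 0.00495). Uso1, the Golgi tether that Rab1 recruits, fell from 25.0 to 13.7 and 12.5 RPKM (log2 ratio -0.89, limma adjusted p = 0.00201), and Plin3, a lipid droplet protein that also binds Rab9, from 65.8 to 36.4 and 36.8 RPKM (log2 ratio -0.83, limma adjusted p = 0.000927). Kif20a, a kinesin that binds Rab6 and works in cytokinesis, rose from 17.4 to 30.5 and 30.2 RPKM (log2 ratio 0.77), and Micall2, an effector of Rab13, from 7.28 to 9.36 and 10.2 RPKM (log2 ratio 0.38). Rab and effector did not always move alike: Rab13 and Micall2 rose and Rab1 and Uso1 fell, whereas Plin3 fell while Rab9 rose, and Kif20a rose while Rab6 did not pass the test (log2 ratio -0.04).

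**Figure D5:**
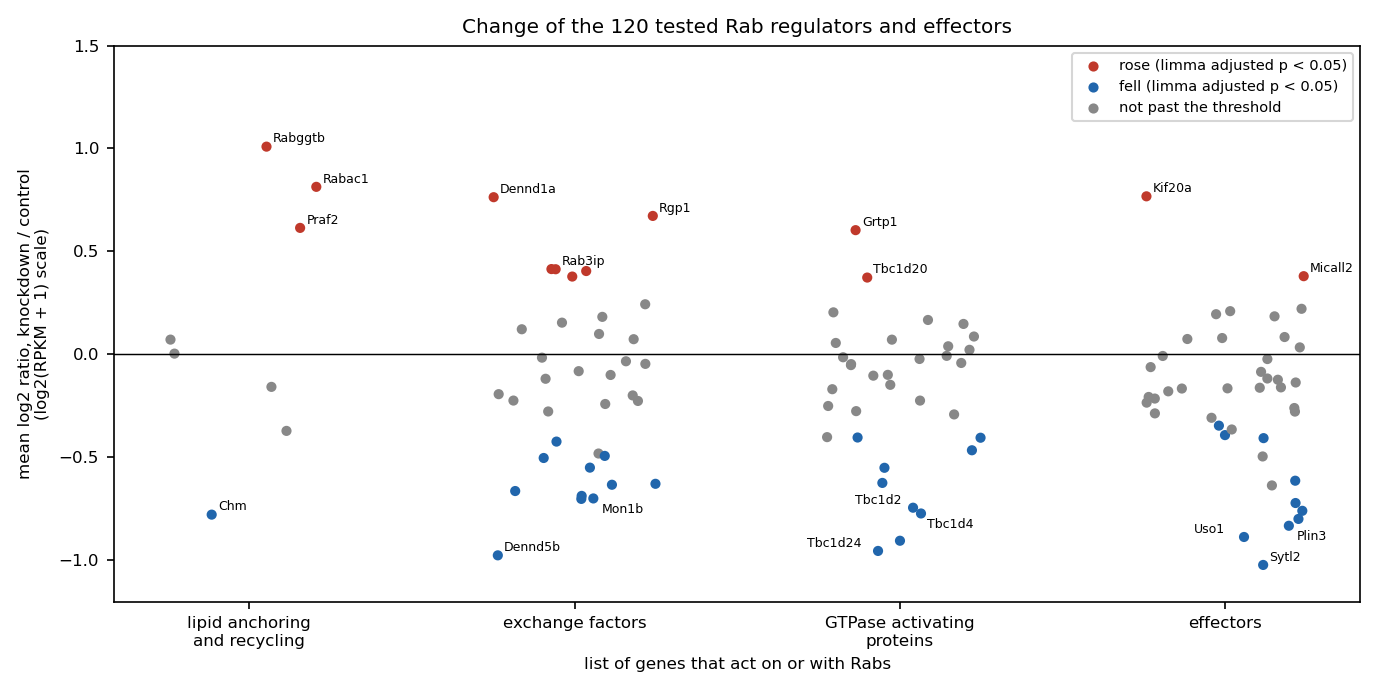
Mean log2 ratio of the 120 tested genes that act on or with Rabs, by list, on the log2(RPKM + 1) scale. Golgb1 is shown under both of its identifiers, and points are spread sideways only for legibility. Red genes rose (13), blue genes fell (31) and grey genes (76) did not pass limma's test; Rabggtb is the highest and Sytl2 the lowest.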

How the data were processed

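Total RNA was purified with Trizol and a column and sequenced from standard Illumina libraries, per the labels' protocols. The deposited values were RPKM computed by the authors, and CASAVA 1.4, TopHat, Cufflinks and the build mm9 are named, without their roles, in the submitters' processing notes. Once sorted, the columns matched in 95.3% of positions (relative tolerance 1e-09), so the libraries had been quantile normalized. No value was 0, and the knockdown columns could be assigned to their group only.

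Values were analysed as log2(RPKM + 1) for the 9722 genes whose mean reached 1 RPKM, with limma 3.58.1 in R 4.3.3 (intensity trend, threshold 0.05, 1 residual and 4.37 prior degrees of freedom). The limma step was also run on simulated data in which all 3 libraries had the same spread. That run could not check the assumption made on the control's spread. Members, steps and lists were chosen with earlier results of these data known. Named were, per step, up to 5 Rabs with the largest log2 ratio, taking for each gene the library nearer to 0, and the most abundant, and per regulator list up to 3 rises and 3 falls by the same measure; other Rabs were added to account for all members, and 1 exchange factor that the rule named is not reported here. Alternatives were another pseudocount, other filters, no trend, equal medians, renewed quantile normalization, a larger control SD, a 1.5-fold limit, each knockdown library left out and a loess correction for length and GC content. Lengths, GC content and shared 50-base words came from GENCODE M21 transcripts, promoters from RefSeq GRCm38.p6. Python 3.11.15, pandas 2.3.3 and matplotlib 3.10.9 were used.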

Additional observations from a re-analysis of the deposited data

How the results depend on the processing

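Of the Rab calls, 21 of 21 were kept with a pseudocount of 0.1 RPKM and 20 without an intensity trend. Equal library medians and renewed quantile normalization also kept 21. They could change little, because the deposited libraries already shared a median and a distribution, so they are no check of the calls. Without a filter 18 were kept, Rab8a, Rab12 and Rab40c were lost and Rab23 was gained, and with a minimum of 5 RPKM all 16 that could still be tested were kept. No called Rab changed direction under these settings or the length and GC correction. Where the control was given 3 times the SD of the knockdown libraries, limma called 0 Rabs (0 higher, 0 lower) and 0 regulators (0 higher, 0 lower), with 8 and 13 at an unadjusted p under 0.05, and 195 genes in all, against 4888. A 1.5-fold limit in both knockdown libraries, with no test, counted 12 Rabs (9 lower, 3 higher), against 21 (16 lower, 5 higher) by limma, and 28 regulators (7 higher), against 44 (13 higher). Of all genes tested 28.1% passed that limit, 13.5% lower and 14.6% higher. With a minimum of 5 RPKM 25 regulators were called, 13 of them lower, with 68 in place of 120 tested. At that minimum 3325 of the 5979 genes tested were called. By the knockdown library left out, 10 to 11 Rabs were at least 1.5-fold lower and 3 higher, and 25 to 26 regulators lower and 7 higher. The cause of the changes was not tested beyond the smaller numbers of genes. No paired analysis was possible because the control had 1 library, so the groups shared fewer than 2 replicate numbers. Depth was unknown and sets no limit that could be given here.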
